A study of Mus musculus with 6 samples.

Results

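The 8 genes described here encode water channels and ion transporters of epithelia: the aquaporins Aqp1 and Aqp5, the anion transporters Slc26a9 and Slc26a2, the cotransporter Slc12a2, the chloride channel Cftr and the sodium pump beta subunits Atp1b1 and Atp1b3. They were taken by name from the 20756 genes of the deposited table, in which all 8 were found. The samples were untreated mouse tumor organoids (MTOs), gel-grown epithelial cultures derived from intestinal tumors of C57BL/6 background, kept in a medium with 50 ng/ml EGF. CRISPR guide RNAs targeted either Prkci (sgPrkci, n = 3, replicates 10, 11 and 12) or Prkcz (sgPrkcz, n = 3, replicates 13, 14 and 15), the genes of the atypical protein kinases C. RNA was read from the 3' end of transcripts (QuantSeq). MTOs with a control guide were not analysed here, and directions are given for sgPrkci relative to sgPrkcz. Whether a group is 1 clone, and whether its libraries came from separate cultures, is not stated, so p-values measure only the spread between these libraries. The study's own material gives the libraries the opposite names in a single place, and every direction below rests on the labels.

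Epithelia move water by moving salt. The sodium pump, an alpha and a beta subunit, keeps sodium low inside the cell. Slc12a2 uses that gradient to load chloride from the blood side, chloride channels such as Cftr let it out at the lumen, bicarbonate and sulfate cross on exchangers, and water follows through aquaporins. In the intestine this circuit drives crypt secretion, and its loss of control gives secretory diarrhea or, without Cftr, thick dry mucus.

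Of the 8 genes 5 were higher in sgPrkci MTOs, namely Aqp1, Atp1b1, Slc26a9, Slc12a2 and Slc26a2, and Aqp5 was lower. Cftr and Atp1b3 did not pass the test. The test was limma on log2(CPM + 1), with p-values adjusted by Benjamini-Hochberg over the 9558 genes that reached 5 CPM (reads scaled to the same total in every library) in 3 or more libraries, and a threshold of 0.05. All 8 genes met this filter, Aqp1 and Atp1b1 only through their sgPrkci libraries. Among all fitted genes 40.9% passed, 14.4% as higher and 26.5% as lower in sgPrkci. In the 6 called genes the 3 values of one group lay beyond the 3 of the other, which held for 50.0% of all fitted genes (18.2% higher and 31.8% lower in sgPrkci). The median log2 fold change was 0.51 over the 8 genes and -0.11 over all fitted genes, a shift that TMM rescaling moved to 0.01 without changing a call or the direction of a called gene among the 8. In bulk RNA, fewer cells of a type and less RNA per cell cannot be told apart.

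**Figure D1:**
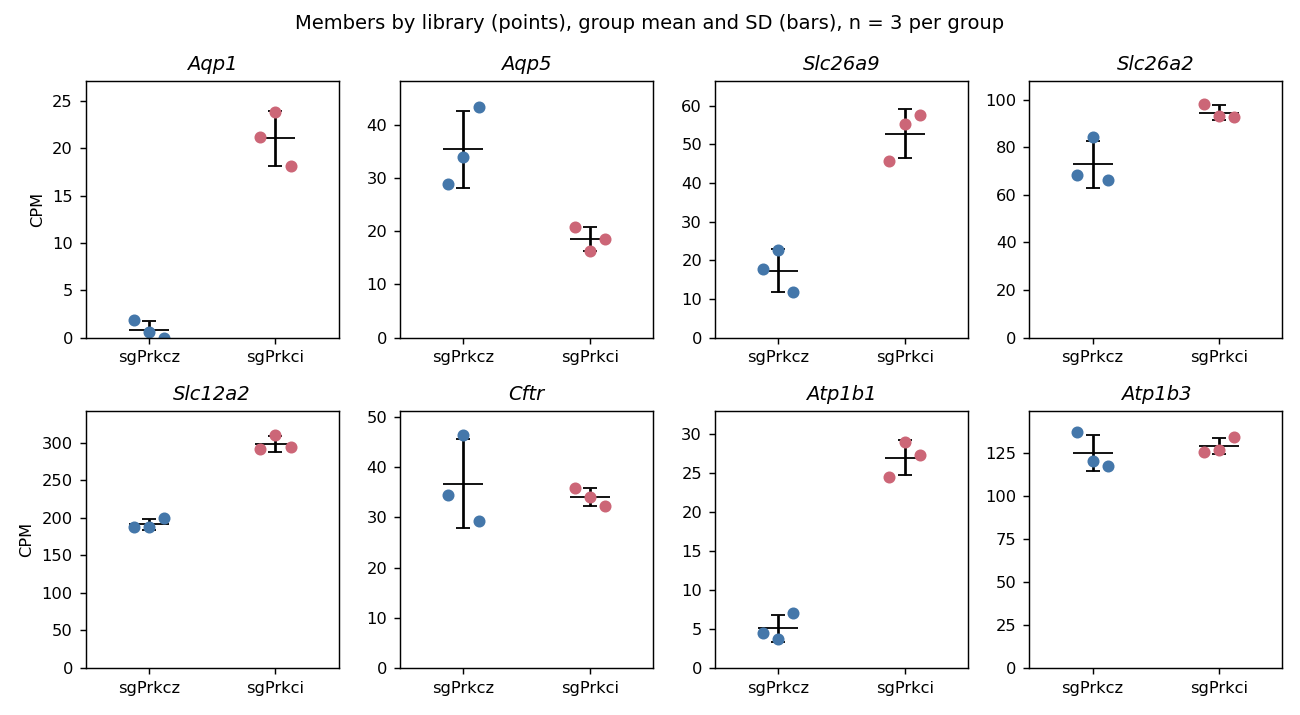
Expression (CPM, linear axis from 0) of the 8 genes in each library, with sgPrkcz in blue and sgPrkci in red; bars are the mean and SD of 3 libraries. The groups are apart for Aqp1, Aqp5, Slc26a9, Slc26a2, Slc12a2 and Atp1b1, with Aqp5 the only one of these lower in sgPrkci, and they overlap for Cftr and Atp1b3.

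The libraries held 1593480 to 2815760 reads, recovered from the CPM steps, and a single read was worth 0.355 to 0.628 CPM. The targeted genes did not separate the groups. Prkci measured 53.9, 56.5 and 46.9 CPM in sgPrkci, against 72.3, 34.5 and 59.7 CPM in sgPrkcz (limma, log2 fold change -0.02 ± 0.18 SE, adjusted p = 0.939). Prkcz, below the filter, had 5 to 13 reads in each library (exact 2-sided permutation test, p = 0.9, where the smallest possible is 0.1). Tags at the 3' end of a transcript need not fall with an edit elsewhere in the gene, so neither value checks the labels.

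Promoter sequences are shown for the 3 genes with the largest rises, Aqp1, Atp1b1 and Slc26a9, and for Cftr, whose groups overlapped. Each is the 250 bases before the RefSeq start site on GRCm38.p6, 5′ to 3′ on the gene's strand, and capitals mark matches to 1 of 7 searched motifs on either strand: the TATA box TATAAA, the CCAAT box CCAAT, the GC box GGGCGG, the AP-1 site TGANTCA, the CRE core TGACG, the NF-kB site by its common consensus and the TCF/LEF site CTTTGAT. The windows are chr6:55336049-55336298 (plus strand) for Aqp1, chr1:131743772-131744021 (plus) for Slc26a9, chr1:164458356-164458605 (minus) for Atp1b1 and chr6:18170437-18170686 (plus) for Cftr.
Aqp1: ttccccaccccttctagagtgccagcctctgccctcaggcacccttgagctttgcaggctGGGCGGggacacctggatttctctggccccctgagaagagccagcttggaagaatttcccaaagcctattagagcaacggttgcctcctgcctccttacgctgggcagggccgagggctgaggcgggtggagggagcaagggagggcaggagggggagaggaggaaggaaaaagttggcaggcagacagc
Slc26a9: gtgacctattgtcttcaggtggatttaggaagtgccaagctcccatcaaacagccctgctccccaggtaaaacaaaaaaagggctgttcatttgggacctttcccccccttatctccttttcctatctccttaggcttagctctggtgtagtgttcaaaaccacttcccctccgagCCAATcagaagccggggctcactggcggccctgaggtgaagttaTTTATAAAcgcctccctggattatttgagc
Atp1b1: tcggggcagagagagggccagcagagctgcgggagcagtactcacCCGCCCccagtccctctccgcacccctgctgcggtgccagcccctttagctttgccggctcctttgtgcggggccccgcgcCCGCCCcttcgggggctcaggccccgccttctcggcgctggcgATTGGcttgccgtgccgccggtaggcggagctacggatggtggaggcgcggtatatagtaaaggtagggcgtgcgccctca
Cftr: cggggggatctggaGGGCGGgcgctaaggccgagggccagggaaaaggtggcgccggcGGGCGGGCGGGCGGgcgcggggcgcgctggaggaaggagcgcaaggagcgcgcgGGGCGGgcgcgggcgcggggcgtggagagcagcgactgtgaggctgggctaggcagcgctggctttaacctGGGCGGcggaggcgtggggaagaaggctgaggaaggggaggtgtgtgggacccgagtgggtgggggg

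In the Slc26a9 window the TATA letters were matched on both strands, as overlapping runs starting 30 and 28 bases before the start site, and a CCAAT box stood at 74 bases before it. The Atp1b1 window held a CCAAT box on the opposite strand 81 bases before the start site and 2 GC boxes, also on the opposite strand. Cftr had 6 GC boxes, 3 of them in an overlapping run, and Aqp1 had 1 GC box. No match to the AP-1, CRE, NF-kB or TCF/LEF letters was found in these 4 windows. Of 32851 windows of the same length, 12.4% held the TATA letters, 33.8% a CCAAT box, 32.7% a GC box, 6.75% an AP-1 site, 17.8% a CRE core, 0.356% an NF-kB site and 3.21% a TCF/LEF site. No searched motif was held by every called gene shown and missing in Cftr, although Slc26a9 and Atp1b1 held a CCAAT box and Cftr none. The GC content of the 4 windows ran from 50% in Slc26a9 over 62% in Aqp1 and 70.4% in Atp1b1 to 76.4% in Cftr. A match describes letters only.

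The water channels moved in opposite directions. Aqp1 (ENSMUSG00000004655, chr6:55336432-55348555, plus strand, GRCm38), a constitutively open water pore, measured 21.1, 23.8 and 18.1 CPM in sgPrkci, against 1.85, 0.628 and 0 CPM in sgPrkcz. Every sgPrkci library was high and every sgPrkcz library was at or near the detection floor, with 51 to 56 reads against 5, 1 and 0. The zero of replicate 15 allows up to 1.76 CPM, the worth of 3 reads. Aqp1 rose by 3.71 ± 0.33 on the log2(CPM + 1) scale (limma, SE, adjusted p = 1.10e-08). This fitted value depends on the pseudocount, from 1.52 with 10 to 5.33 with 0.1, and all of these passed. The adjusted p was much larger, though still past the threshold, without limma's trend (0.000460) and without the filter (0.0121). Pooled over libraries, 158 reads in sgPrkci against 6 in sgPrkcz gave a ratio of 20.8 per read sequenced (exact 95% interval 9.33 to 57.4, counting error only). Aqp1 is also known from red blood cells and capillary endothelium. The 2 measured of 5 red blood cell markers, the hemoglobin genes Hba-a1 and Hbb-bs, had no reads in any library. The 4 measured of 5 endothelial markers, with Kdr at 0 throughout, summed to at most 0.467 CPM in sgPrkci and 1.85 CPM in sgPrkcz. The part of such cells in the Aqp1 difference was not tested.

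Aqp5 (ENSMUSG00000044217, chr15:99590782-99594829, plus strand), the apical water channel of salivary, sweat and airway glands that also marks stem cells of the gastric antrum, measured 20.7, 16.3 and 18.5 CPM in sgPrkci, against 28.9, 33.9 and 43.3 CPM in sgPrkcz. All sgPrkci libraries lay below all sgPrkcz libraries, and the spread was wider in sgPrkcz (SD 7.30 against 2.20 CPM, n = 3 each). The mean was 18.5 CPM against 35.4 CPM (log2 fold change -0.89 ± 0.18 SE, limma adjusted p = 0.000348; -0.77 with TMM).

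Because both aquaporins are read in the same library, the split of their reads does not depend on how libraries are scaled. Aqp5 took 49.5%, 40.7% and 50.5% of the Aqp5 and Aqp1 reads in sgPrkci. In sgPrkcz it took 94.0%, 98.2% and 100% (exact 95% limits of the lowest and highest library 86.5% and 100%). The mean share was 46.9% ± 5.40 against 97.4% ± 3.09 (SD, n = 3), with a gap between the groups far wider than either spread. These are shares of 3' tags and not of protein. Of 12 listed aquaporin genes 6 were in the table and 4 were fitted. The other fitted members, Aqp9, a glycerol and water channel, and Aqp11, an intracellular aquaporin, had overlapping groups (log2 fold changes -0.58 and -0.24, limma adjusted p = 0.125 and 0.401).

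**Figure D2:**
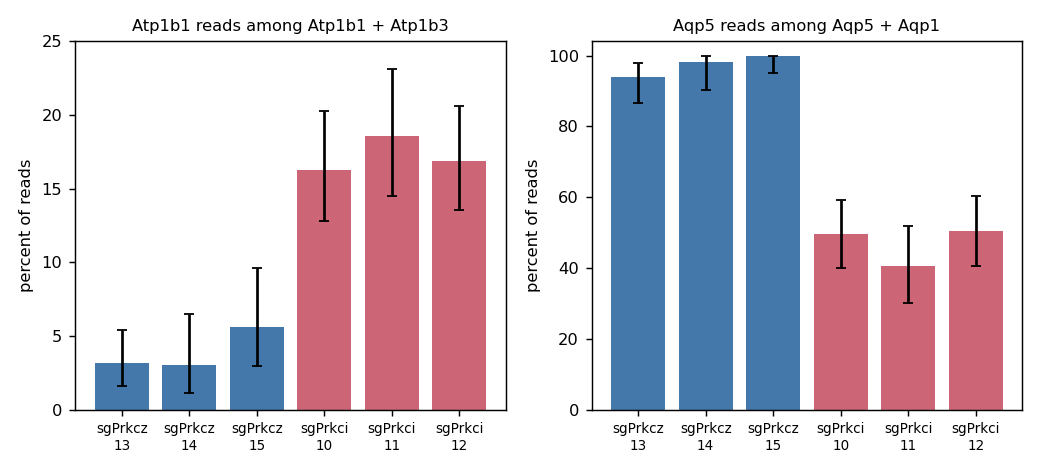
Share of reads (percent, from 0) of Atp1b1 among Atp1b1 and Atp1b3 reads (left) and of Aqp5 among Aqp5 and Aqp1 reads (right) in each library, with exact 95% binomial intervals for counting error. The Atp1b1 share lies at 3.03% to 5.63% in sgPrkcz and 16.3% to 18.6% in sgPrkci, and the Aqp5 share at 94.0% to 100% and 40.7% to 50.5%.

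Both SLC26 genes were higher in sgPrkci. Slc26a9 (ENSMUSG00000042268, chr1:131744022-131771504, plus strand) encodes a chloride transporter of gastric and airway surface epithelium that works alongside Cftr. It measured 45.6, 55.1 and 57.5 CPM in sgPrkci, against 17.8, 22.6 and 11.7 CPM in sgPrkcz. The lowest sgPrkci library stood well above the highest sgPrkcz library. The log2 fold change was 1.59 ± 0.19 (SE, limma adjusted p = 6.61e-07), and means differed 3.04-fold. Markers of gastric mucous cells moved the same way: the 3 measured of 6 summed to 1123 to 1241 CPM in sgPrkci and 622 to 663 CPM in sgPrkcz. Most of each sum was Tff1, at 1039 to 1153 CPM and 611 to 646 CPM. Tff2 measured 79.4 to 93.5 CPM in sgPrkci and 9.95 to 15.9 CPM in sgPrkcz, and Muc5ac 2.13 to 4.67 CPM and 0.371 to 0.628 CPM. Their part in the Slc26a9 difference was not tested.

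Slc26a2 (ENSMUSG00000034320, chr18:61192919-61211612, minus strand), the sulfate transporter whose loss in humans impairs sulfation of cartilage proteoglycans and which is strongly expressed in colon, measured 98.1, 92.9 and 92.7 CPM in sgPrkci, against 68.2, 84.1 and 66.1 CPM in sgPrkcz. The groups did not overlap, although sgPrkcz replicate 14 came close to the sgPrkci libraries. Its log2 fold change was 0.38 ± 0.11 (SE, limma adjusted p = 0.00846), the smallest of the called changes among the 8 genes. Without the filter on low values the adjusted p was 0.0943, the only setting of 16 in which one of the 6 called genes lost its call. Of 11 listed SLC26 genes 7 were in the table and 3 were fitted. The other, Slc26a11, measured 6.03, 6.07 and 8.88 CPM in sgPrkci, against 5.93, 4.39 and 7.02 CPM in sgPrkcz, which overlap.

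Sulfate taken up by the cell is activated to PAPS before it is used. Of 6 listed genes of this route 5 were fitted, 3 of them higher and none lower (60% called, against 40.9% of all fitted genes). Impad1, a Golgi phosphatase that clears the by-product of sulfation, measured 610.3, 587 and 536 CPM in sgPrkci, against 376, 336 and 401 CPM in sgPrkcz (a log2 fold change of 0.64 ± 0.08 SE, limma adjusted p = 1.13e-06). Slc35b2, which carries PAPS into the Golgi, and Papss1, a PAPS synthase, had log2 fold changes of 0.37 and 0.30 (limma adjusted p = 0.0298 and 0.0268). Both lost the call without the filter. Slc35b2 also lost it without sgPrkci replicate 10 or 12 or sgPrkcz replicate 13 or 14 (adjusted p up to 0.140), and Papss1 without sgPrkci replicate 10 or 12 or sgPrkcz replicate 14 or 15 (up to 0.0973) or without limma's trend (0.0658).

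Slc12a2 (ENSMUSG00000024597, chr18:57878678-57946821, plus strand) encodes NKCC1, the sodium, potassium and chloride cotransporter that loads chloride into secretory cells, and its mRNA is abundant in intestinal crypts. It measured 291, 310.1 and 294 CPM in sgPrkci, against 187, 187 and 199.5 CPM in sgPrkcz. Replicates lay close together in each group, with a gap between the groups wider than the spread of either. Means of 298 ± 10.3 and 191 ± 7.15 CPM (SD, n = 3) differed 1.56-fold (log2 fold change 0.64 ± 0.08 SE, limma adjusted p = 1.02e-06). Of 9 SLC12 genes, all in the table, 4 were fitted and the 3 others did not pass, among them the potassium and chloride cotransporter Slc12a7 and Slc12a9 (log2 fold changes 0.09 and -0.03).

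NKCC1 is switched on by a kinase cascade in which WNK kinases phosphorylate SPAK (Stk39) and OSR1 (Oxsr1). Stk39 measured 8.67, 7.01 and 4.97 CPM in sgPrkci, against 24.5, 22.6 and 24.0 CPM in sgPrkcz, so the kinase gene was low where its substrate's gene was high. Its log2 fold change was -1.67 ± 0.22 (SE, limma adjusted p = 2.92e-06). Wnk1 was lower too, at 318, 330.2 and 329 CPM against 383, 428 and 427 CPM (-0.34 ± 0.07, adjusted p = 0.000897; 0.0501 with DESeq2). Oxsr1 did not pass (0.09, adjusted p = 0.605). Prkg2, the cGMP-dependent kinase that phosphorylates the Cftr channel in intestine, measured 241, 236 and 222 CPM in sgPrkci, against 389, 393 and 387 CPM in sgPrkcz (a log2 fold change of -0.74 ± 0.07 SE, limma adjusted p = 5.80e-08). Among 12 listed kinases and scaffolds 7 were fitted, 3 lower and none higher (42.9% called, against 40.9% of all fitted genes). The scaffold gene Ezr, which ties transporters to the cytoskeleton, measured 1011 to 1035 CPM in sgPrkci and 930.4 to 978 CPM in sgPrkcz and was not called (log2 fold change 0.10, adjusted p = 0.249), but was higher with TMM (0.22, adjusted p = 0.00957).

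Cftr (ENSMUSG00000041301, chr6:18170687-18322768, plus strand), the cAMP-gated chloride and bicarbonate channel mutated in cystic fibrosis, measured 35.8, 34.1 and 32.3 CPM in sgPrkci, against 34.5, 46.4 and 29.3 CPM in sgPrkcz. The sgPrkcz libraries lay on both sides of the sgPrkci libraries, and replicate 14 was the highest. Its log2 fold change was -0.08 ± 0.16 (SE, limma adjusted p = 0.716) and turned to 0.04 with TMM and to 0.10 without replicate 14. On pooled reads the sgPrkci to sgPrkcz ratio was 0.941 (exact 95% interval 0.783 to 1.13, counting error only). The interval leaves out the spread between libraries, so larger changes could also have been missed. An antisense gene, Gm15592, and a pseudogene, Gm15595, lie within the Cftr gene and were not analysed here.

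Among 27 listed chloride channel genes 25 were in the table and 15 fitted, with 2 higher, 2 lower and 11 not passing, Cftr included. The share called was 26.7%, below the 40.9% of all fitted genes. Clcn2, an inwardly rectifying chloride channel, measured 6.03, 9.34 and 6.04 CPM in sgPrkci, against 5.19, 0 and 4.10 CPM in sgPrkcz (a log2 fold change of 1.34 ± 0.47 SE, limma adjusted p = 0.0246). It met the filter only through its sgPrkci libraries. The zero in replicate 14 allows up to 1.88 CPM, and without that library the change was 0.51 and the adjusted p 0.203. Without sgPrkci replicate 10 or 11 the adjusted p was 0.0565 or 0.0937. The call was also lost without the filter (0.414), without limma's trend (0.140) and with DESeq2 (0.0969). Ano9, a member of the anoctamin family named after its values were seen, measured 11.7 to 13.1 CPM against 5.85 to 9.41 CPM (0.65, adjusted p = 0.0319). It did not pass in 5 of the 6 fits that left out a library, all but that without sgPrkcz replicate 14 (adjusted p up to 0.117), without the filter (0.0948) or with DESeq2 (0.0809). Ano6, a lipid scramblase and ion channel, was lower at 50.9, 39.7 and 33.0 CPM against 63.4, 57.7 and 70.8 CPM (-0.64 ± 0.15, adjusted p = 0.00117; 0.106 without the filter). Lrrc8c, a subunit of the volume-regulated anion channel, was lower as well (-0.82 ± 0.24, adjusted p = 0.00949; 0.109 with DESeq2, 0.0682 without the filter and 0.0529 without sgPrkci replicate 10). Ano1, the calcium-activated chloride channel, measured 132 to 139.6 CPM in sgPrkci and 105 to 127 CPM in sgPrkcz and did not pass (0.19, adjusted p = 0.123), but did with TMM (0.31, adjusted p = 0.0101).

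The sodium pump beta subunits parted. Atp1b1 (ENSMUSG00000026576, chr1:164437109-164458355, minus strand), the usual beta subunit of transporting epithelia, measured 24.5, 29.0 and 27.3 CPM in sgPrkci, against 4.45, 3.77 and 7.02 CPM in sgPrkcz. All sgPrkci libraries were high, and the sgPrkcz values rest on 12, 6 and 12 reads. Its log2 fold change was 2.23 ± 0.23 (SE, limma adjusted p = 9.44e-08; 1.30 with a pseudocount of 10), and pooled reads gave a ratio of 5.36 (exact 95% interval 3.64 to 8.15, counting error only). Without limma's trend the adjusted p of Atp1b1 was 0.000374, and without the filter 0.00893. The 3' end of Atp1b1 overlaps the opposite-strand gene Nme7 by 617 bases, and the sources used here do not state whether reads were counted by strand, so reads of these 2 genes may not be fully separated. Nme7 measured 14.7, 19.1 and 16.7 CPM in sgPrkci, against 8.16, 13.8 and 8.19 CPM in sgPrkcz (0.72 ± 0.23, adjusted p = 0.0153; up to 0.0693 without sgPrkci replicate 11, sgPrkcz replicate 13 or sgPrkcz replicate 15, and 0.149 without the filter).

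Atp1b3 (ENSMUSG00000032412, chr9:96332655-96364442, minus strand), a more broadly expressed beta subunit, measured 126, 127 and 135 CPM in sgPrkci, against 137, 120.5 and 118 CPM in sgPrkcz. The groups overlapped, the highest value being in sgPrkcz. Its log2 fold change was 0.05 ± 0.09 (SE, limma adjusted p = 0.707), and the pooled read ratio was 1.02 (exact 95% interval 0.925 to 1.12). Atp1b1 took 16.3%, 18.6% and 16.9% of the reads of both beta genes in sgPrkci and 3.14%, 3.03% and 5.63% in sgPrkcz, with means of 17.2% ± 1.18 and 3.94% ± 1.47 (SD, n = 3). This share, which library scaling cannot move, was high in every sgPrkci library and low in every sgPrkcz library, without overlap.

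Of 15 listed pump and FXYD genes 12 were in the table and 6 fitted, 3 higher and none lower. The share called was 50%, against 40.9% of all fitted genes. Fxyd3, a small regulatory subunit of the pump found in epithelia and tumors, measured 226, 206 and 213 CPM against 77.1, 69.7 and 57.9 CPM (log2 fold change 1.65 ± 0.10 SE, limma adjusted p = 3.06e-11). Fxyd5, another regulator, did not pass (0.36, adjusted p = 0.237).

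**Figure D3:**
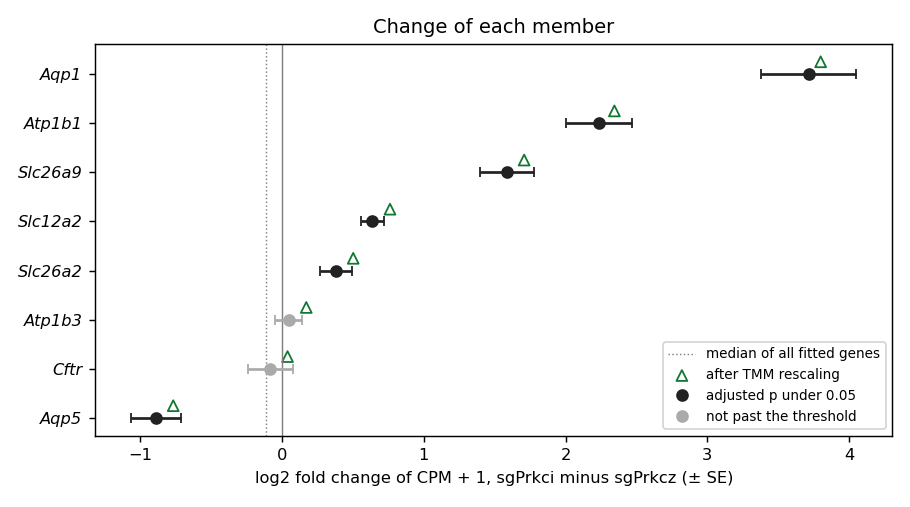
Log2 fold change of CPM + 1, sgPrkci minus sgPrkcz, for the 8 genes, with SE bars from limma on 6 libraries; black points passed the adjusted p threshold of 0.05 and grey points did not. The changes run from -0.89 for Aqp5 to 3.71 for Aqp1, the value after TMM rescaling (green triangles) lies right of each point, and the dotted line is the median of all fitted genes (-0.11).

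Transporters that work with these genes gave mixed counts. Of 10 listed bicarbonate transporters 4 were fitted, 2 higher and none lower (50% called, against 40.9% of all fitted genes). Slc4a4, the sodium bicarbonate cotransporter that feeds bicarbonate secretion, measured 99.9, 112 and 115 CPM in sgPrkci, against 71.2, 60.9 and 67.3 CPM in sgPrkcz (a log2 fold change of 0.70 ± 0.11 SE, limma adjusted p = 1.51e-05). Slc4a7, a related cotransporter, changed less (0.35 ± 0.11, adjusted p = 0.0163; 0.111 without the filter, 0.0631 without limma's trend, and 0.113 or 0.0678 when sgPrkci replicate 10 or sgPrkcz replicate 15 was left out). Among 9 sodium-proton exchangers 4 were fitted and only Slc9a9, of endosomes, passed (25% called, against 40.9% of all fitted genes). Slc9a9 measured 9.81, 12.1 and 9.59 CPM against 4.08, 5.65 and 4.68 CPM (0.99 ± 0.26, adjusted p = 0.00361). The carbonic anhydrase Car2, which makes bicarbonate and protons from CO2, was lower, at 4.90, 4.20 and 4.26 CPM against 9.64, 8.16 and 10.5 CPM (-0.93 ± 0.26, adjusted p = 0.00618; 0.0887 with DESeq2). It was 1 of 2 fitted among 15 listed carbonic anhydrases. Slc9a9 met the filter only through its sgPrkci libraries, and Car2 only through its sgPrkcz libraries.

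Of 11 epithelial potassium channel genes, which recycle potassium and keep the voltage that drives chloride out, 5 were fitted, 2 lower and none higher. The share called was 40%, against 40.9% of all fitted genes. Kcnk1, a leak potassium channel, measured 99.9, 106 and 108 CPM in sgPrkci, against 131, 147 and 136 CPM in sgPrkcz (a log2 fold change of -0.39 ± 0.09 SE, limma adjusted p = 0.00183; 0.0791 with DESeq2). Kcne3, the beta subunit that holds Kcnq1 open in crypts, had a change of -0.37 (adjusted p = 0.0379) that did not pass with TMM (0.165), quantile normalization (0.152), rRNA-like genes left out (0.0901), edgeR (0.135) or DESeq2 (0.331), or in any fit that left out a library other than sgPrkcz replicate 15 (up to 0.126). Kcnq1 itself, whose groups were apart with sgPrkci higher, was not called (0.21, adjusted p = 0.195), but was with TMM (0.33, adjusted p = 0.0368). In the list of the epithelial sodium channel and its proteases 4 of 7 genes were fitted. The channel-activating protease Prss8 was higher, at 27.5, 27.1 and 30.5 CPM against 15.2, 18.2 and 21.1 CPM (0.63 ± 0.18, adjusted p = 0.00636). Nedd4l, the ubiquitin ligase that removes the channel from the membrane, was lower, at 42.6, 40.2 and 49.0 CPM against 66.0, 58.4 and 74.3 CPM (-0.58 ± 0.13, adjusted p = 0.000984). None of the 3 proton-potassium pump genes was found in the table.

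**Figure D4:**
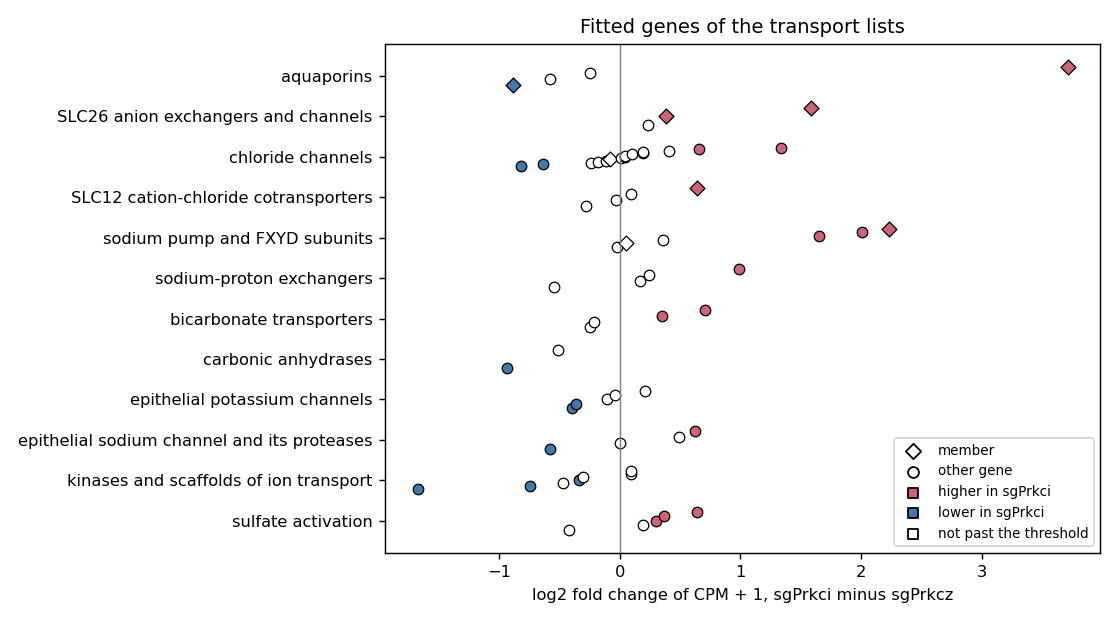
Log2 fold change of CPM + 1, sgPrkci minus sgPrkcz, of each fitted gene in 12 transport lists (1 row a list); diamonds are the 8 genes described here and circles other genes, red if higher, blue if lower and white if not past the threshold. Aqp1 lies farthest right, at 3.71, and Stk39 farthest left, at -1.67.

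Over all 147 listed transport genes 117 were in the table and 63 were fitted, 16 higher and 10 lower. Without the 8 genes, 11 of 55 fitted genes were higher and 9 lower, with 36.4% called against the 40.9% of all fitted genes and a median log2 fold change of 0.01 against -0.11. The wider transport lists passed the test at about the rate of genes at large. Among the 8 genes 75% passed, a count that rests on few genes chosen with results of these data known.

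The genes whose log2(CPM + 1) ran most closely with that of each of the 8 genes over the 6 libraries were looked up by Pearson's r. For Aqp1 these were the transcription factor genes Sox17 and Foxq1 (r 0.998 for both), for Atp1b1 Luc7l2 and Ubap1 (0.997 both), and for Slc12a2 Dlgap1 and Uap1 (0.998 and 0.997). Slc26a9 ran with Tax1bp1 and Bok (0.998 and 0.996), and Slc26a2 with Tpp2 and Sh3bgrl3 (0.997 and 0.995). Aqp5, the one gene of the 8 that fell, ran with Grb2 and Phf6 (0.989 both). The genes nearest to Atp1b3, Pdlim5 and Sar1b (0.978 both), and to Cftr, Chmp2a and Rpl31-ps8 (0.950 and 0.947), had log2 fold changes between -0.14 and 0.08. The points form 1 cluster per group and share libraries and depth, so these values are a description only.

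Markers of cell types differed between the groups along with these genes. The 6 epithelial markers were expressed in every library, with Epcam at 520 to 823 CPM, and summed to 3569 to 3991 CPM in sgPrkci and 4392 to 4685 CPM in sgPrkcz, with 1 higher and 4 lower. The 8 enterocyte markers summed to 296 to 323 CPM in sgPrkci against 152 to 169 CPM in sgPrkcz, most of it Ceacam1 and Vil1. The 3 fitted ones, Ceacam1, Vil1 and Krt20, were like Atp1b1 and Aqp1 higher in sgPrkci. Krt20 met the filter only through its sgPrkci libraries. Alpi and Sis were at 0 in all libraries, and Fabp1, Fabp2 and Apoa1 reached at most 1.26 CPM. The 6 goblet cell markers summed to 35.0 to 52.9 CPM against 2.34 to 5.19 CPM, almost all of it Spink4 and Agr2, and the 4 crypt stem cell markers to 59.2 to 63.9 CPM against 32.6 to 38.3 CPM. Of the latter 1 of 2 fitted markers was higher, Lgr5 at 37.0 to 38.4 CPM against 10.7 to 17.4 CPM, while the groups overlapped for Ascl2 and Olfm4 and Smoc2 were at or near 0. In the direction of Aqp5, the 5 measured of 6 squamous epithelial markers summed to 26.2 to 33.6 CPM in sgPrkci and 676 to 772 CPM in sgPrkcz. The 3 fitted ones, Krt4, Krt14 and Cnfn, were lower in sgPrkci, and Cnfn met the filter only through its sgPrkcz libraries. Krt5 was at or near 0, and Krt13, not fitted, went the other way at low counts (mean 3.47 CPM in sgPrkci, 1.34 CPM in sgPrkcz). The 3 measured of 5 tuft cell markers summed to 486 to 559 CPM in sgPrkci against 704 to 904 CPM in sgPrkcz, with Dclk1 at 0. The 5 fibroblast markers reached at most 2.34 CPM in sum, and Col1a2 and Col3a1 were at 0. The 3 measured of 7 leukocyte markers summed to 7.94 to 12.4 CPM in sgPrkci and to 4.10 to 7.42 CPM in sgPrkcz, nearly all of it Cd68, with Ptprc at 1.51 CPM or less. The part of these shifts in the changes of the 8 genes was not tested.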

How the data were processed

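MTO RNA was sequenced single-end as 6 QuantSeq 3' libraries (3 sgPrkci, 3 sgPrkcz, grouped by label) on an Illumina NextSeq. The deposited values are CPM made by the authors for 20756 Ensembl genes on GRCm38 (per the labels). The kit was used with optional molecular identifiers per the labels, and a Lexogen QuantSeq workflow (BlueBee) is on the study's software list. Whether reads were collapsed on the identifiers, and the aligner, counter, annotation and strand setting behind this table, are not stated in those sources. Symbols were matched for 20675 genes. Gene positions are those of GENCODE M21 (GRCm38) and promoters from RefSeq (GRCm38.p6), where 6 of the 8 genes matched.

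The 8 genes and all lists were chosen with earlier results of these data known. The 9558 genes that reached 5 CPM in 3 or more libraries were fitted with limma 3.58.1 (R 4.3.3), trend on, after log2(CPM + 1) transformation, p-values adjusted by Benjamini-Hochberg, threshold 0.05. This scale understates the change of low genes. Dividing by the smallest value above 0 gave whole numbers for 100% of values within 0.01, so reads were recovered, and edgeR 4.0.16 on them called 2011 genes higher and 1930 lower in sgPrkci. DESeq2 1.42.0, other scalings, filters and pseudocounts, and leaving out each library were further alternatives. The tests were also run on simulated data in which few genes changed, raised and lowered about equally. Many genes differed here, so that run cannot check the scaling. Intervals on reads are exact binomial and cover counting error only.

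Named were the 8 genes, up to 3 called genes with the smallest adjusted p of each transport list, the 2 fitted genes most correlated with each of the 8 genes (mean CPM of at least 32.2 and an established symbol), Prkci and Prkcz. Other genes were named after their values were seen. Results for a few listed genes are not reported here. Apart from the read shares of paired genes and the make-up of marker sums, levels are not compared between genes.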

Additional observations from a re-analysis of the deposited data

How the results depend on the processing

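The balance of calls moved with the scaling. Genes higher and lower in sgPrkci numbered 1377 and 2534 as deposited, 2025 and 1847 with TMM, 1854 and 1926 with quantile normalization, 1751 and 2124 without rRNA-like genes, 2011 and 1930 with edgeR, 1450 and 1350 with DESeq2, and 864 and 1551 without the filter. Of the 8 genes 6 kept their direction and side of the threshold in all 16 settings. Slc26a2 missed it without the filter (limma adjusted p = 0.0943). Cftr, never called, turned positive with TMM (0.0397), quantile normalization (0.0344), edgeR (0.0257) and DESeq2 (0.0192), and ranged from -0.23 to 0.0972 with single libraries left out. Prkci, not called, turned to 0.101 with TMM, 0.0736 with quantile normalization, 0.0501 without rRNA-like genes and 0.0104 with DESeq2, and ranged from -0.324 to 0.199 with single libraries left out. The 21 other genes refitted include Prkci, which had no call to lose. Of the rest, 8 kept their call in all settings that fitted them. A call was lost in 49 of 333 refits, a total that counts those of Prkci. No paired analysis was possible because the groups share no replicate number. Depth limits genes of a few CPM, such as Aqp1 and Atp1b1 in sgPrkcz.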
